A study of Mus musculus with 16 samples.

Results

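Malat1, Neat1, Meg3, Rian, Mirg, Miat, Snhg11, Kcnq1ot1 and Peg13 are long RNAs with no known protein product that are kept mostly in the nucleus, and their levels were followed here mouse by mouse in the hippocampus. They are 9 of the 54532 genes in the deposited count table and were found by gene name; 8 of the 9 carry a noncoding gene type in GENCODE M21, in which 6571 genes of such types had a count, while Snhg11 is typed there as protein coding. Malat1 was chosen by its measured level, which in hTau.P301S mice was below that of WT mice, so that difference is given as a description and without a test. RNA was taken from whole tissue and enriched with oligo(dT) beads, so the place of an RNA in the cell was not measured.

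The study compared 4 groups of 4 mice each. hTau.P301S mice express a human Tau transgene that bears the P301S mutation, driven in neurons by the Thy1 promoter, and WT mice are controls. The + NR groups drank 6 mM nicotinamide riboside (NR), from which cells make NAD+, during 3 months, and the labels put all 16 mice between 12 and 15 months of age (the study's text gives a lower age). The groups are therefore WT and hTau.P301S, each without NR and with it (WT + NR, hTau.P301S + NR).

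Long noncoding RNAs of the nucleus act mostly as scaffolds. Malat1 lies in nuclear speckles, which store splicing factors, and Neat1 builds paraspeckles around its own transcript. Meg3, Rian and Mirg come from the maternal copy of the imprinted Dlk1-Dio3 region and carry small RNAs within them, Kcnq1ot1 and Peg13 come from paternal copies of other imprinted regions, Miat binds splicing factors in neurons, and Snhg11 is a neuronal host of small nucleolar RNAs.

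Malat1 and Neat1 lie next to each other on chromosome 19 (GRCm38, minus strand, chr19:5795690-5802672 and chr19:5824708-5845478). Malat1 and the long form of Neat1 are known to end, after cleavage, in an A-rich tract encoded in the genome rather than in a poly(A) tail, and U-rich motifs before it fold back onto it. Because the libraries were made with oligo(dT), the 110 bases that end in this tract are shown for both RNAs, read from the GENCODE M21 transcripts Malat1-201 and Neat1-201, with capitals for every run of at least 11 bases that both stretches hold.
Malat1, chr19:5795982-5796091, minus strand: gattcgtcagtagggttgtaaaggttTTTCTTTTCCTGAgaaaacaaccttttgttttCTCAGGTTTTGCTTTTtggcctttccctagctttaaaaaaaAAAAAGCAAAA
Neat1, chr19:5824708-5824817, minus strand: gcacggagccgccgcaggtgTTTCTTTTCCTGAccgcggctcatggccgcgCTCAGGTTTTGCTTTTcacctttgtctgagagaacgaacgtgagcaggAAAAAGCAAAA
The stretches share 3 runs, of 13, 16 and 11 bases, in the same order, the last of which is the end of the tract. In Malat1 this end is preceded by more A, in an unbroken run of 12, and the annotated transcript of 6983 bases goes on for 292 bases beyond it. The last run occurs in 618 of 141767 mouse transcripts (0.436%) and stands at the very end of 9. The longest run of A in the longest transcript of the other RNAs was 41 bases in Kcnq1ot1, 16 in Meg3, 15 in Rian, 8 in Snhg11, 5 in Mirg and Peg13 and 4 in Miat. How far capture by oligo(dT) differed between libraries was not tested.

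The RefSeq table of promoters (GRCm38.p6, 250 bases before to 50 after a start) held 7 of the 9 RNAs, with 2 starts for Meg3; Neat1 and Peg13 were not matched. That of Malat1 is shown with those of Miat, Meg3 and Kcnq1ot1, whose levels followed it most closely across mice. Capitals mark TGACGT or its reverse complement ACGTCA, the core of the cyclic AMP response element.
Malat1, chr19:5802623-5802922, minus strand: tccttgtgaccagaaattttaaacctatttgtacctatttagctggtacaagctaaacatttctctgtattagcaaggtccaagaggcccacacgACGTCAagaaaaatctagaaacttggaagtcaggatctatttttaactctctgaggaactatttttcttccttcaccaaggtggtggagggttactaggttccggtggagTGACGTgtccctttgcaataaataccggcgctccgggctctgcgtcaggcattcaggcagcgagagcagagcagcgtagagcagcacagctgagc
Miat, chr5:112228899-112229198, minus strand: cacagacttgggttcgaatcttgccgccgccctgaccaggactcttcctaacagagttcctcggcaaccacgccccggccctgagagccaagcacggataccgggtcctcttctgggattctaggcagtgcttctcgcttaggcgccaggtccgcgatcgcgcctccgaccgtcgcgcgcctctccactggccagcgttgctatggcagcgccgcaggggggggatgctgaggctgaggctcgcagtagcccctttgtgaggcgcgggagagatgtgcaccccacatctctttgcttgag
Meg3, chr12:109540746-109541045, plus strand: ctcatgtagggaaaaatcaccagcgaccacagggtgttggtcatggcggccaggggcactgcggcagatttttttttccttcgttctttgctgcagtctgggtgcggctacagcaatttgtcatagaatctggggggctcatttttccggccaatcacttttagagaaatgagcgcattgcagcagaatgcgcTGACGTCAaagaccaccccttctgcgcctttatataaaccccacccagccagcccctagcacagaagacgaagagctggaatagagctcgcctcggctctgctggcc
Kcnq1ot1, chr7:143296498-143296797, minus strand: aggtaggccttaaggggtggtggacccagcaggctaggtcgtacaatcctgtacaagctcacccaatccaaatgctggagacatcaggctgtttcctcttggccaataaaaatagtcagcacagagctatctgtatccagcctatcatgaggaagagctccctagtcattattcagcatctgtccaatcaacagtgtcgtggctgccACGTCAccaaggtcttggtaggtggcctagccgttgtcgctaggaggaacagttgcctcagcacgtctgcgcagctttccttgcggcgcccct
TGACGT on either strand was present in the promoters of Malat1 (2 places), Meg3 (2 matches that overlap, since they form the palindrome TGACGTCA) and Kcnq1ot1 (1 place), and in 7.51% of all 32851 promoters; TGACGTCA was in 1.79%. It was not in the windows of Miat, Snhg11, Rian, Mirg or the second start of Meg3. CCAAT, searched on both strands, was found 3 times for Kcnq1ot1 and once each for Meg3 and Mirg, against 37.4% of all promoters with a match, and GGGCGG was found for Miat (35.7% of all promoters). TATAAA was found at the first start of Meg3, where the matches on the 2 strands overlap, and in 13.6% of all promoters. These matches describe the letters in each window.

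The libraries held between 16490261 and 21915362 counts. hTau.P301S replicate 1 stood apart, with 14.4% of its counts from mitochondrial genes against 4.48% to 7.07% in the other 15 mice, 19467 genes detected against at least 22199, and a length index of -2.45 against -0.56 to 0.52. The length index is the median deviation from the mean over all mice, in log2 CPM (counts scaled to a common library size), of the longest 10% of genes minus that of the shortest 10%. Xist, the RNA that coats the inactive X chromosome, was above 140 CPM in 3 WT and 2 hTau.P301S mice without NR and in 3 WT and 1 hTau.P301S mice with it, and below 0.5 CPM in the rest; the labels used here give no sex. In these bulk samples fewer cells of a type and less RNA per cell cannot be told apart.

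Per kilobase of the gene length in the file, the order of the mean levels over the 16 mice was Peg13 (65.2 CPM per kb), Snhg11 (53.2), Meg3 (40.1), Malat1 (31.8), Rian (20.1), Miat (12.4), Neat1 (4.09), Mirg (1.35) and Kcnq1ot1 (0.0904). Snhg11 was above Meg3, and Mirg above Kcnq1ot1, in 16 of 16 mice. Miat exceeded Neat1 in 15 mice and Neat1 exceeded Mirg in 14. The other neighbours swapped order more often: Peg13 was above Snhg11, Meg3 above Malat1, and Rian above Miat in 12 mice each, and Malat1 above Rian in 10. Kcnq1ot1 had the fewest reads, 35 to 414 counts, and Mirg had 80 to 457; the other 7 had at least 365 counts in every mouse.

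Malat1 was at 304, 32.3, 562 and 659 CPM in WT replicates 1 to 4 and at 45.7, 109, 49.0 and 58.0 CPM in the hTau.P301S mice. All 4 hTau.P301S mice were below WT replicates 1, 3 and 4, and all 4 were above WT replicate 2, which had the lowest level of the 16 mice. With NR, Malat1 was at 403, 375, 84.1 and 139 CPM in WT mice and at 212, 157, 219 and 142 CPM in hTau.P301S mice, so that the latter group lay inside the range of the former and above every hTau.P301S mouse without NR. The mean of the WT mice was 390 ± 281 CPM (SD, n = 4), against 65.4 ± 29.5 CPM for hTau.P301S. With NR the means were 250 ± 162 CPM for WT and 183 ± 38.7 CPM for hTau.P301S mice. The fitted log2 fold change of hTau.P301S over WT, which chose Malat1, was -2.57 (standard error 0.76), and it ranged from -2.98 to -2.21 with each mouse left out in turn. Since Malat1 was chosen for this fall, neither the standard error nor the range tests it.

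**Figure D1:**
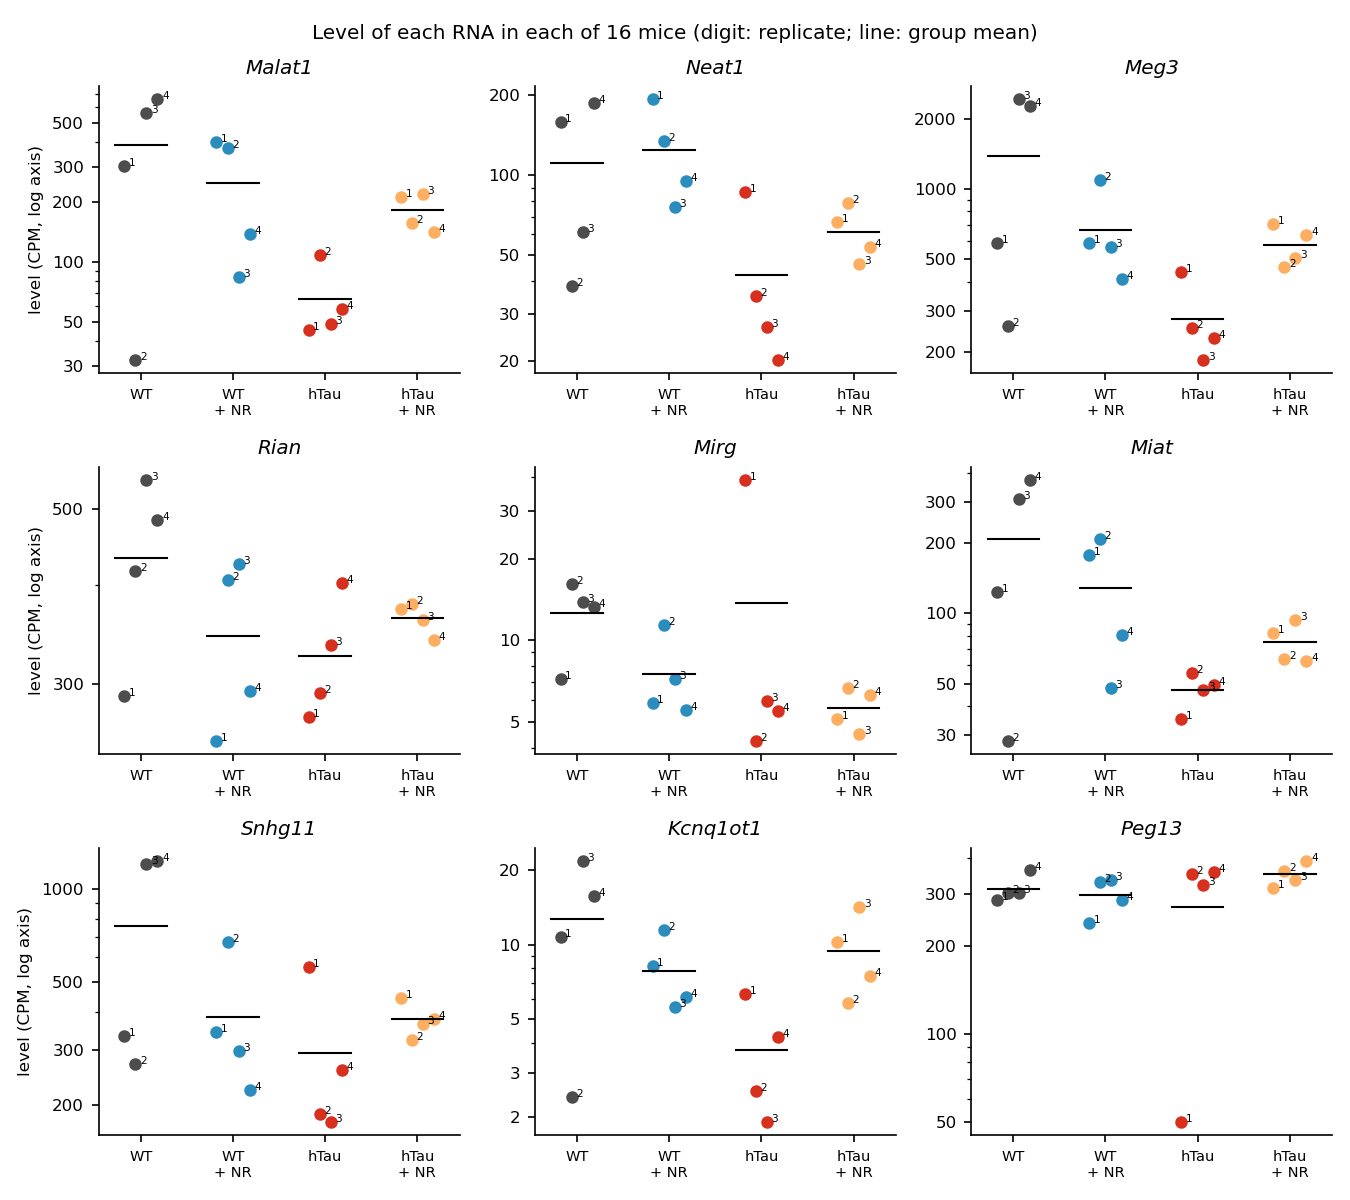
Levels of the 9 RNAs in CPM (counts scaled to a common library size, log axis, a different range in each panel) in each of 16 mice; points carry the replicate number, lines are group means (n = 4). WT mice spread most for Malat1, Meg3 and Miat, with replicate 2 lowest, while Rian stayed between 254 and 544 CPM and Peg13 was at 239 to 390 CPM except for 50.0 CPM in hTau.P301S replicate 1.

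Neat1, the neighbour of Malat1, was at 159, 38.4, 61.4 and 187 CPM in WT mice and at 86.5, 35.1, 26.9 and 20.2 CPM in hTau.P301S mice. With NR it was at 194, 134, 76.0 and 95.1 CPM in WT and at 66.7, 78.6, 46.6 and 53.6 CPM in hTau.P301S mice. hTau.P301S + NR mice were lower than all WT + NR mice apart from replicate 2, whose 78.6 CPM passed the 76.0 CPM of WT + NR replicate 3. The neighbours did not keep a fixed ratio, since Malat1 counts over Neat1 counts ran from 0.529 in hTau.P301S replicate 1 to 9.15 in WT replicate 3.

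The Dlk1-Dio3 region on chromosome 12 (GRCm38, plus strand) holds 3 of the RNAs. Meg3 (chr12:109541001-109571726), a noncoding RNA known to restrain cell growth, was at 587, 258, 2428 and 2260 CPM in WT and at 438, 252, 184 and 229 CPM in hTau.P301S mice. With NR, Meg3 was at 589, 1093, 561 and 412 CPM in WT and at 706, 461, 503 and 635 CPM in hTau.P301S mice. WT replicates 3 and 4 had more Meg3 than any of the other 14 mice, and all hTau.P301S + NR mice were above all hTau.P301S mice, narrowly (461 against 438 CPM).

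Rian (chr12:109603940-109661716), which holds 13 annotated small nucleolar RNAs, was at 290, 417, 544 and 484 CPM in WT, 254, 407, 425 and 294 CPM in WT + NR, 272, 292, 336 and 403 CPM in hTau.P301S, and 374, 379, 362 and 341 CPM in hTau.P301S + NR mice. These ranges overlapped in every pair of groups, and the highest Rian level was 2.15 times the lowest, against 13.2 times for Meg3. Within a mouse, Meg3 counts over Rian counts were 2.03, 0.619, 4.46 and 4.67 in WT and 1.61, 0.863, 0.549 and 0.570 in hTau.P301S mice. In the + NR groups the ratio was above 1 in all 8 mice, from 1.32 to 2.69 in WT and from 1.22 to 1.89 in hTau.P301S mice.

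Mirg (chr12:109729764-109749460), with 14 annotated microRNAs on its strand, was at 7.18, 16.2, 13.9 and 13.3 CPM in WT and at 5.85, 11.4, 7.16 and 5.53 CPM in WT + NR mice. It was at 39.1, 4.24, 5.94 and 5.49 CPM in hTau.P301S and at 5.11, 6.63, 4.48 and 6.27 CPM in hTau.P301S + NR mice. The value of hTau.P301S replicate 1, the library that stood apart, was the highest of the 16, and the other 7 mice with the transgene were all below 7 CPM.

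**Figure D2:**
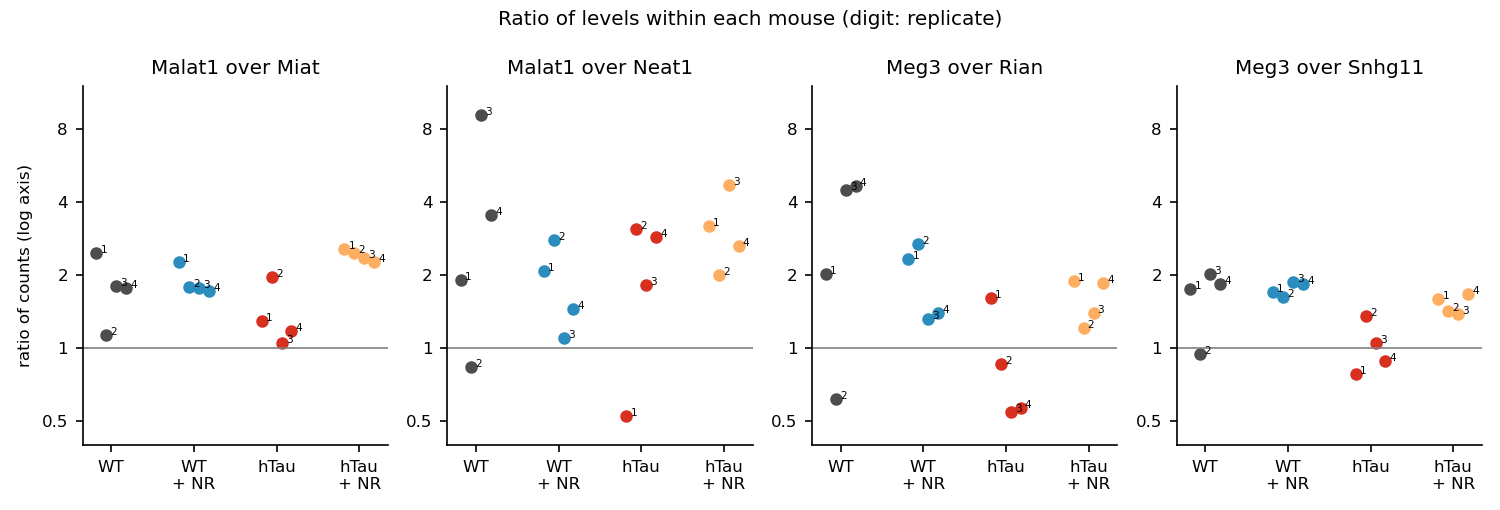
Ratio of the counts of 2 RNAs within each of 16 mice (log axis, digits are replicate numbers, the grey line marks equal counts). Malat1 over Miat stayed between 1.05 and 2.57, while Meg3 over Rian, from the same imprinted region, ran from 0.549 to 4.67.

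Miat (chr5:112213228-112229395, minus strand) was at 123, 28.3, 311 and 373 CPM in WT and at 178, 209, 47.6 and 80.9 CPM in WT + NR mice. It was at 35.2, 55.7, 46.9 and 49.3 CPM in hTau.P301S and at 82.6, 63.7, 93.5 and 62.6 CPM in hTau.P301S + NR mice. The order of the mice was close to that of Malat1: WT replicates 3 and 4 were high, WT replicate 2 was the lowest of the 16, and every hTau.P301S + NR mouse was above every hTau.P301S mouse. Malat1 counts over Miat counts ran from 1.05 to 2.57 in the 16 mice, although the highest Malat1 level was 20.4 times the lowest.

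Snhg11 (chr2:158375638-158386145, plus strand) was at 333, 272, 1199 and 1228 CPM in WT and at 557, 186, 176 and 259 CPM in hTau.P301S mice, and with NR at 345, 671, 299 and 224 CPM in WT and at 442, 325, 364 and 380 CPM in hTau.P301S mice. WT replicates 3 and 4 were again far above the rest. Kcnq1ot1 (chr7:143203458-143296549, minus strand, within the gene of the potassium channel Kcnq1 on the other strand), which silences neighbouring genes on the paternal chromosome, was at 10.7, 2.41, 21.8 and 15.7 CPM in WT and at 6.33, 2.54, 1.91 and 4.21 CPM in hTau.P301S mice. With NR it was at 8.22, 11.4, 5.58 and 6.15 CPM in WT and at 10.3, 5.79, 14.2 and 7.43 CPM in hTau.P301S mice. Whether the counting used strand is not given in the sources used here; Kcnq1 itself had 167 counts over all 16 mice.

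Peg13 (chr15:72805600-72810324, minus strand), which lies in an intron of Trappc9 on the same strand, was the steadiest of the 9 once hTau.P301S replicate 1 is set aside. It was at 288, 303, 302 and 362 CPM in WT, 239, 330, 336 and 286 CPM in WT + NR, 50.0, 352, 323 and 357 CPM in hTau.P301S, and 317, 360, 337 and 390 CPM in hTau.P301S + NR mice. Unspliced Trappc9 RNA and Peg13 cannot be told apart in such counts.

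Between hTau.P301S and WT mice without NR, 8 of the 9 fitted log2 fold changes were below 0, as were 47.7% of all 16375 genes tested. After Malat1 the values were -2.32 for Meg3, -2.16 for Miat, -1.75 for Kcnq1ot1, -1.39 for Neat1, -1.35 for Snhg11, -0.41 for Rian, -0.22 for Peg13 and 0.12 for Mirg, with standard errors of 0.25 to 0.72. The median was -1.39, against 0.02 for all genes. With the trend of each library over gene length taken into the offsets of the fit, the median was -0.53: Malat1 was then at -2.41, Miat at -1.88, Meg3 at -1.52, Snhg11 at -0.90, Kcnq1ot1 at -0.53, Neat1 at -0.50 and Rian at -0.03. Since these values chose Malat1, no p is read for any of the 9; of all genes, 0.00611% passed the limits in edgeR (an adjusted p below 0.05 with a log2 fold change beyond 0.5 in either direction). None of the 9 had all hTau.P301S mice below all WT mice, as 2.69% of genes did. WT replicate 2 lay within the hTau.P301S range for Meg3, Neat1, Snhg11 and Kcnq1ot1 and below it for Malat1 and Miat, and without it the fold changes were the lowest of the leave-one-out series for Malat1 (-2.98), Meg3 (-2.70) and Miat (-2.55). Without hTau.P301S replicate 1 the value of Kcnq1ot1 was -2.14, that of Neat1 -2.02 and that of Snhg11 -1.88, that of Mirg turned to -1.29 and that of Peg13 to 0.12.

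**Figure D3:**
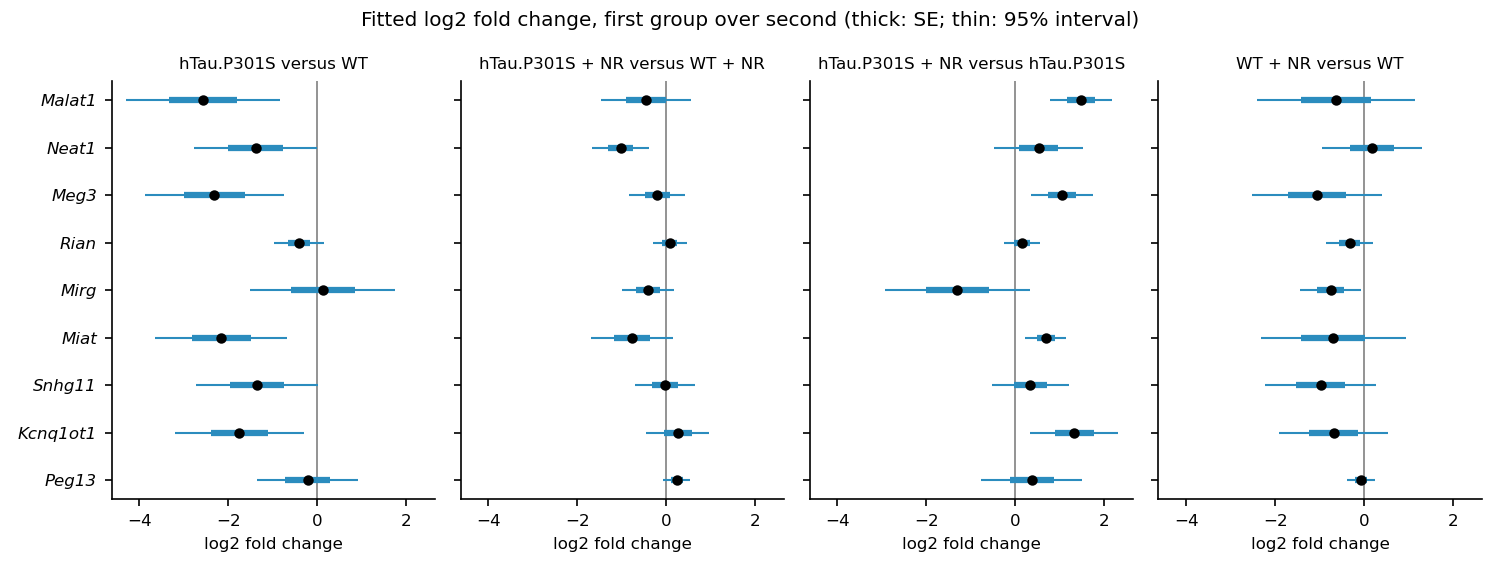
Log2 fold changes of the 9 RNAs (first group over second) from edgeR in 4 comparisons of 8 mice each; points are estimates, thick lines standard errors and thin lines 95% intervals. The first panel holds the contrast that chose Malat1 (-2.57), whose values are not tested and whose intervals only describe the fit. In hTau.P301S + NR against WT + NR the interval of Malat1 runs from -1.46 to 0.55 and that of Neat1 from -1.66 to -0.38.

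The same genotype contrast in the mice given NR used 8 animals that did not enter the fall by which Malat1 was chosen, so all 9 RNAs were tested there. The list of RNAs itself was drawn up with earlier results of these data known. Neat1 had the largest difference, a log2 fold change of -1.02 (standard error 0.29, 95% interval -1.66 to -0.38), at 61.4 ± 14.2 CPM (SD, n = 4) in hTau.P301S + NR against 125 ± 52.0 CPM in WT + NR mice, and it lay from -1.20 to -0.72 when any of the 8 mice was dropped. Its unadjusted p was 0.00554 and its adjusted p 0.757 (edgeR), which does not pass. Malat1 differed by -0.45 (standard error 0.45, 95% interval -1.46 to 0.55, adjusted p = 0.837, edgeR), and its value was -0.74 without WT + NR replicate 3 and -0.11 without WT + NR replicate 1. Miat was at -0.77 (-1.04 to -0.44 when any of the 8 was dropped), Mirg at -0.41, Meg3 at -0.20 and Snhg11 at -0.03, while Kcnq1ot1, Peg13 and Rian were at 0.26, 0.24 and 0.08. Thus 6 of 9 were below 0 (53% of 16671 genes), with a median of -0.20 against -0.02 for all genes. None of the 9 passed the limits in edgeR or DESeq2, where 0.054% of genes passed in edgeR. Only Neat1 was under an unadjusted p of 0.05, as were 6.09% of genes, and no RNA had all hTau.P301S + NR mice below all WT + NR mice, as 2.11% of genes did.

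NR in hTau.P301S mice was compared next, with the caution that these values share the 4 hTau.P301S mice that chose Malat1. Levels of Miat, Kcnq1ot1 and Meg3 followed Malat1 over the 16 mice (r of 0.958, 0.845 and 0.841, group means kept). Their p may therefore be too small. With NR the log2 fold change of Malat1 was 1.48 (standard error 0.31), given without a p. Kcnq1ot1 was higher by 1.33 (standard error 0.44, unadjusted p = 0.0147), Meg3 by 1.05 (standard error 0.31, unadjusted p = 0.00774) and Miat by 0.69 (standard error 0.20, unadjusted p = 0.00806) in edgeR, each with an adjusted p of 0.367, which does not pass. Neat1 was at 0.53, Peg13 at 0.38, Snhg11 at 0.34, Rian at 0.16 and Mirg at -1.30. So 8 of 9 were above 0, and 52.4% of the 16386 genes tested were below. An unadjusted p under 0.05 was reached by 3 of the 8 tested RNAs and by 12.9% of genes, and the limits in edgeR by none of the 8 and by 0.0061% of genes. All hTau.P301S + NR mice were above all hTau.P301S mice for Malat1, Meg3 and Miat, as for 6.33% of genes.

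The library of hTau.P301S replicate 1 touches these values. Without it Meg3 passed the limits (1.39 on the log2 scale with a standard error of 0.18, edgeR's adjusted p = 0.0381). In that fit 33 of 16734 genes passed, against 1 of 16386 with all mice, and it still holds mice that chose Malat1. Since Meg3 followed Malat1 across mice, its p may be too small, and its pass is no independent test. Meg3 was the only one of the 9 to pass, while Mirg went from -1.30 to 0.12. With the trend of each library over gene length taken into the offsets, Malat1 was at 1.31, while Miat went from 0.69 to 0.38, Meg3 from 1.05 to 0.22, Kcnq1ot1 to -0.02, Snhg11 to -0.15, Rian to -0.45 and Neat1 to -0.46.

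In WT mice NR went with lower values for 8 of 9 RNAs, from -1.05 for Meg3 and -0.97 for Snhg11 to -0.07 for Peg13, and with 0.17 for Neat1, and 48.9% of 16714 genes were below 0. Mirg was lower by 0.75 on the log2 scale (standard error 0.31) with an unadjusted p of 0.0368 and an adjusted p of 0.9999 (edgeR); 0.79% of genes were under 0.05 unadjusted. The value of Malat1 was -0.63 (standard error 0.79), and it is given without a p because it shares the WT mice. None of the 8 tested RNAs passed the limits in edgeR or DESeq2, nor did any gene in edgeR (0%), and none had all WT + NR mice below all WT mice, as 0.389% of genes did.

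The interaction, the NR effect in hTau.P301S minus that in WT mice, fitted over 16 mice, was above 0 for 8 of the 9. Of all 17555 genes, 51.7% were below 0. This interaction includes both groups whose difference chose Malat1, so the p of RNAs that follow Malat1 may be too small. By edgeR it was 2.12 for Meg3 (standard error 0.77, unadjusted p = 0.0144) and 2.03 for Kcnq1ot1 (standard error 0.74, unadjusted p = 0.0152), both with an adjusted p of 0.558. Malat1 had 2.12 (standard error 0.92), with no p, Miat 1.39, Snhg11 1.34, Rian 0.49, Peg13 0.45, Neat1 0.38 and Mirg -0.52. None of the 8 tested RNAs passed in edgeR or DESeq2, no gene did in edgeR (0% of 17555), and 7.92% of genes had an unadjusted p under 0.05.

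The spread among the WT mice was large for these RNAs. The SD of the log2 level of Malat1 in WT was 2.01, and 0.917% of genes had a larger one; it was 1.70 for Miat (1.65% of genes larger), 1.57 for Meg3 (2.23%) and 1.38 for Kcnq1ot1 (3.51%), against a median of 0.33 over all genes. Rian, at 0.40, and Peg13, at 0.15, were near or below that median. In hTau.P301S + NR mice Malat1 varied by 0.31 and Rian by 0.07, with a median of 0.24 for all genes.

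The mouse-to-mouse relation of each RNA to Malat1 was taken over the 16 mice after each group mean had been removed, since a difference between groups had chosen Malat1. The values share libraries and total counts. Values were permuted across groups, whose spread differed, so the permutation p may be too small. Miat followed Malat1 most closely, with Pearson's r of 0.972 (permutation p = 1e-05, the smallest the permutations can give; adjusted over 8 relations 8e-05) and Spearman's rho of 0.956 (permutation p = 1e-05). Of 17554 genes ranked by r, Miat was the first. Without the 2 mice farthest from the median of Malat1, WT replicate 2 and WT + NR replicate 3, r was 0.891, and without all WT mice it was 0.946.

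The other relations rested more on single mice. For Kcnq1ot1 r was 0.768 (permutation p = 0.00135, adjusted 0.0036), with rho of 0.582 (adjusted permutation p = 0.0675), and it was 0.305 without the 2 farthest mice. For Meg3 r was 0.759 (permutation p = 0.00091, adjusted 0.0036), with rho of 0.565 (adjusted permutation p = 0.0675), and it was 0.511 without those mice and 0.308 without the WT group. Snhg11 (r of 0.591, adjusted permutation p = 0.0258) and Neat1 (r of 0.541, adjusted permutation p = 0.0446) had rho of 0.450 and 0.421, with adjusted permutation p of 0.166 and 0.173, and r of 0.390 and 0.035 without the 2 mice. The lower values without these mice show how far the relations rest on WT replicate 2 and WT + NR replicate 3. With the WT group left out, r was 0.331 for Kcnq1ot1, 0.322 for Neat1 and 0.212 for Snhg11. Without hTau.P301S replicate 1, the library that stood apart, r was instead 0.867 for Kcnq1ot1, 0.830 for Meg3, 0.735 for Snhg11 and 0.722 for Neat1. Peg13, Rian and Mirg had r of 0.107, 0.020 and -0.194, with adjusted permutation p of 0.749, 0.940 and 0.577.

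**Figure D4:**
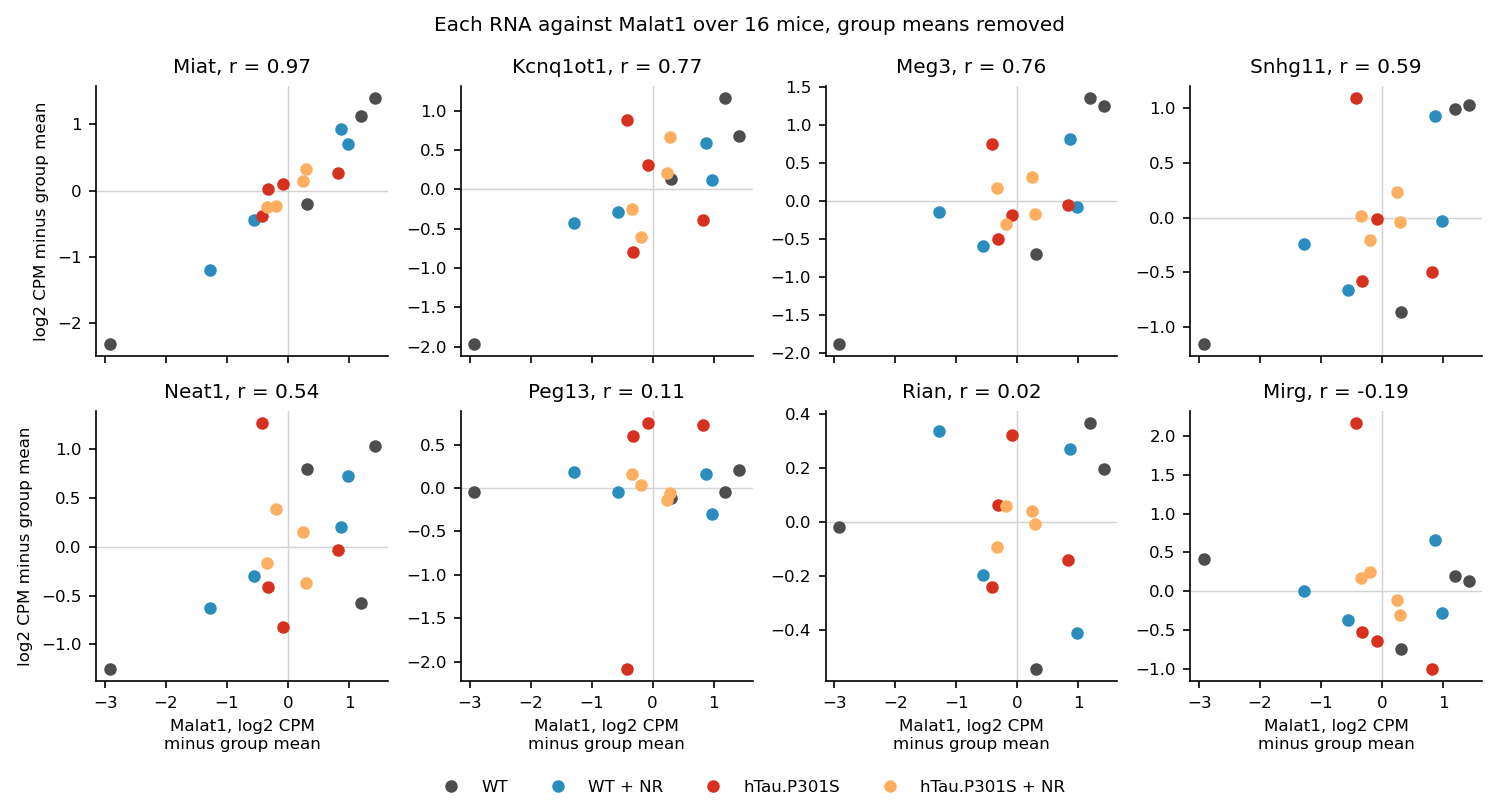
Level of each of 8 RNAs against Malat1 in 16 mice, both as log2 CPM minus the group mean; colours are groups and r is Pearson's. Miat (0.97) lies along a line in all groups, the point at the far left is WT replicate 2, and Rian (0.02) shows no slope.

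Outside the 9, genes with the highest r to Malat1 over the same 16 mice included Srek1 (0.959), a splicing regulator, Cdk6 (0.942), a cell cycle kinase, Akap8 (0.938), a nuclear anchoring protein, Gm30177 (0.933), Phf20l1 (0.932), Gm44667 (0.924), Gm21781 (0.924), Cpeb1 (0.923), which regulates translation at the poly(A) tail, and Gm43857 (0.922). None of the 7 of these that were tested passed the limits in hTau.P301S + NR against WT + NR mice, where Gm30177 had the lowest value, -1.47 (adjusted p = 0.781, edgeR). Without the 2 mice farthest from the median of Malat1, r of these genes ran from 0.697 (Gm43857) to 0.918 (Gm30177). Of the 100 genes with the highest r, Miat among them, 31 were of long noncoding or unclassified type, against 10.4% of all ranked genes. Their median length was 6860.5 bases, against 3931 for all ranked genes. Of the 17554 genes, Miat included, 26 had r above 0.9.

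Markers of the striatum ran against Malat1 in some mice. The summed level of 4 striatal markers (Drd1, Drd2, Adora2a and Rgs9), each above 0 in every mouse, was 460 CPM in WT replicate 2 and 20.6 to 27.8 CPM in the other WT mice. It was 20.1 to 86.4 CPM in WT + NR, with the highest in replicate 3, 18.8 to 21.6 CPM in hTau.P301S and 23.0 to 154 CPM in hTau.P301S + NR, with the highest in replicate 4. The mouse with the most striatal marker RNA was also the lowest for Malat1 within each of WT, WT + NR and hTau.P301S + NR. With group means removed, r of the summed markers was -0.848 with Malat1, -0.839 with Miat, -0.788 with Kcnq1ot1 and -0.610 with Meg3 over 16 mice, and -0.545, -0.574, -0.445 and -0.087 without WT replicate 2. hTau.P301S mice had both few striatal markers and little Malat1. The summed level of 7 markers of hippocampal excitatory neurons was 382 to 1043 CPM and had r of 0.621 with Malat1, and that of 5 choroid plexus markers ran from 18.9 to 9776 CPM, with r of -0.426 with Malat1 and -0.730 with Snhg11. The part of tissue make-up in the levels was not tested.

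Peg13 and Mirg went with the measures of library hTau.P301S replicate 1 instead. With group means removed, r with the length index was 0.909 for Peg13 and -0.839 for Mirg, and with the mitochondrial share -0.933 and 0.831, over 16 mice that include this library. Malat1 had 0.436 with the length index and -0.298 with the mitochondrial share, and its r with the number of genes detected was higher, 0.650, as was that of Miat, 0.622. Between 19467 and 23073 genes were detected in hTau.P301S mice, against 22603 to 24918 in WT and 23215 to 24090 in hTau.P301S + NR mice. The part of RNA quality or library content in these levels was not tested.

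**Figure D5:**
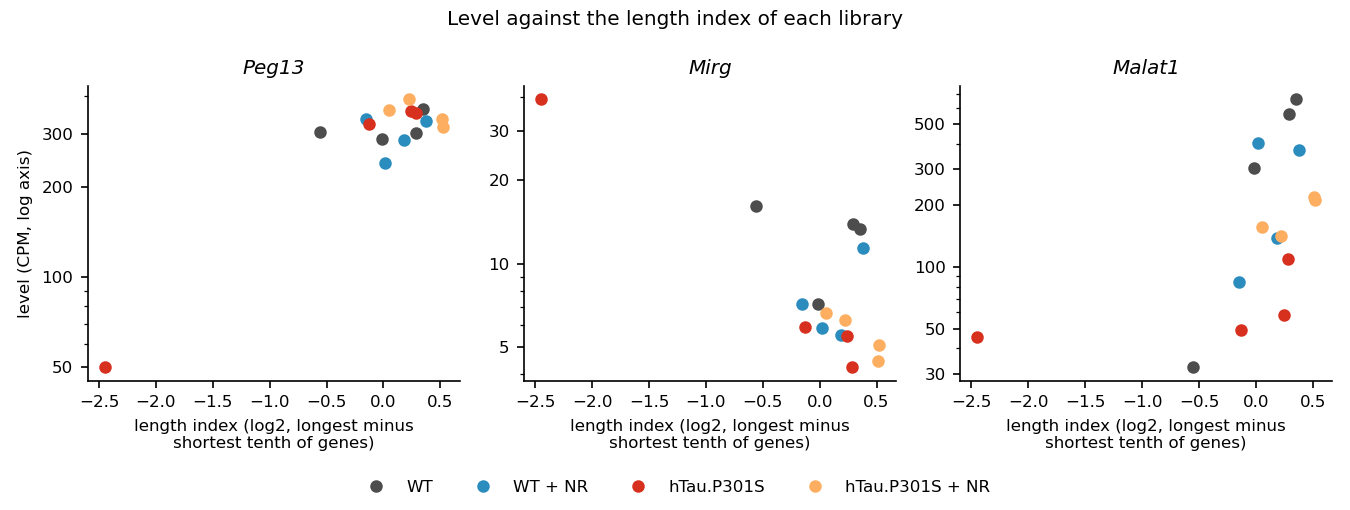
Levels of Peg13, Mirg and Malat1 (CPM, log axis) against the length index of each of 16 libraries (log2). The point at -2.45 is hTau.P301S replicate 1, with 50.0 CPM of Peg13 and 39.1 CPM of Mirg; its Malat1, 45.7 CPM, lies within the range of the others.

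Among 38 other long noncoding RNAs, 29 could be tested in hTau.P301S + NR against WT + NR mice: 11 were higher, 18 lower and none passed, with a median log2 fold change of -0.12 against -0.02 for all genes. Tug1, a nuclear RNA that was at 128 ± 10.4 CPM (SD, n = 4) against 103 ± 6.81, was at 0.31 (adjusted p = 0.757, edgeR), and Dlx6os1, expressed in inhibitory neurons, at 0.56 (adjusted p = 0.757, edgeR). In hTau.P301S mice NR went with 13 higher and 15 lower of 28, and none passed. Mir9-3hg, a host of miR-9, had the smallest adjusted p, 0.260 (edgeR), with a log2 fold change of -1.11, Sox2ot was at 0.93 and Snhg14 at 0.85. Across mice, with group means removed and no test, the 4 with the highest mean levels had r with Malat1 of 0.326 (2900097C17Rik), 0.837 (1700020I14Rik), 0.163 (Xist) and 0.389 (Tug1).

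The proteins of speckles and paraspeckles are the partners of Malat1 and Neat1. Of 22 such genes none passed in any comparison. In hTau.P301S against WT mice 16 were lower and 6 higher, with a median of -0.22 against 0.02 for all genes, and in the mice given NR 13 were lower and 9 higher, with a median of -0.03 against -0.02. Across mice r with Malat1 was 0.651 for Srrm2, a scaffold of speckles, 0.377 for Qk, 0.278 for Matr3 and -0.432 for Hnrnpk, the 4 most abundant. Sfpq, a core protein of paraspeckles with r of 0.413, averaged 171 ± 18.7 CPM (SD, n = 4) in WT and 109 ± 27.6 CPM in hTau.P301S mice without NR. With NR it averaged 162 ± 24.95 CPM in WT and 158 ± 12.9 CPM in hTau.P301S mice. Its adjusted p was 0.598 for hTau.P301S against WT and 0.367 for NR in hTau.P301S mice (edgeR). In hTau.P301S against WT Sfpq was at -0.65, Hnrnpm at -0.66 and Tardbp at -0.52. These were the 3 of the 22 genes with an unadjusted p under 0.05 (edgeR), as had 1169 of all 16375 genes. Nono, Pspc1 and Rbm14, among the 6 that were higher, were at 0.03, 0.22 and 0.21.

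Protein-coding genes lie around the imprinted RNAs and around Malat1. Rtl1, a paternal transcript of the Dlk1-Dio3 region, was at 1.86, 6.00, 4.80 and 4.06 CPM in WT and at 1.37, 1.17, 1.09 and 0.665 CPM in hTau.P301S mice, and with NR at 2.46, 1.58, 5.82 and 1.24 CPM in WT and at 2.82, 3.70, 1.23 and 3.06 CPM in hTau.P301S mice. The groups without NR did not overlap, as for 2.69% of genes with every hTau.P301S mouse lower, and its adjusted p there was 0.504 (edgeR). Rtl1 had few reads, 12 to 118 counts per mouse. Its r with Malat1 was -0.362, against 0.759 for Meg3. The lowest r of each imprinted region was -0.702 for Dlk1, also paternal, -0.694 for Trappc9, around Peg13, and -0.773 for Nap1l4, near Kcnq1ot1. The highest r of a coding gene in the same regions was 0.020 for Dio3, 0.353 for Kcnk9 and 0.390 for Kcnq1, which had at most 37 counts. None of these r was tested. Leaving out the noncoding RNAs described above, 4 of the 4 tested genes of the Dlk1-Dio3 region had a value below 0 in the genotype contrast without NR and 2 in the one with NR. In the Kcnq1ot1 region these were 2 and 6 of 6, in the Peg13 region 2 and 2 of 4, and beside Malat1 and Neat1 3 and 4 of 6. Of all genes tested, 47.7% were below 0 without NR and 53% with NR. None of the genes in these regions passed the limits.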

How the data were processed

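Hippocampal RNA of 16 mice was measured by RNA-seq of poly(A)-enriched libraries (NEBNext Ultra kit). The authors trimmed the reads with Trim Galore, aligned them to mm10 with STAR, and deposited raw counts per gene from RSEM with a gene length; tool versions, the strand setting and how the length was defined are not given in the sources used here. The deposited counts are whole numbers with no normalization. Members and gene lists were chosen with earlier results of these data known.

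Groups came from the labels, and nothing says that libraries shared a batch. Each of 4 pairs of groups was fitted on its 8 mice, and the interaction on 16, with the quasi-likelihood test of edgeR 4.0.16 in R 4.3.3 (filterByExpr, TMM, Benjamini-Hochberg adjustment over all genes tested). A gene passed when its adjusted p was below 0.05 and its log2 fold change beyond 0.5 in either direction, as in the study, or at the adjusted p alone for the interaction. Levels in CPM, counts scaled to a common library size, used TMM-scaled library sizes, and log2 CPM a prior count of 2. Relations to Malat1 were tested with 100000 permutations (two-sided) of the values over all 16 mice, after group means were removed. The permutations were not kept within groups, and the spread differed between groups, so these p may be too small. The named genes are the 9 RNAs, the 10 other genes with the highest r to Malat1 (1 of them, and 1 striatal marker, which was also left out of the marker sum, are not reported here), and list genes with an unadjusted p under 0.05 or among the 4 highest in mean CPM. DESeq2 1.42.0 and the other alternatives are given at the end. With 200 genes changed in simulated counts for hTau.P301S + NR against WT + NR, 36.5% of log2 changes of 1 and 90.5% of changes of 2 were recovered (16387 and 16398 genes). No column of the count table was left unmapped, and no pair of libraries shared more than 4.29% equal counts. Replicates are separate samples by their labels.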

Additional observations from a re-analysis of the deposited data

Results flagged for a closer look

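2 values stood apart from the other 3 mice of their group, of 36 groups of 4 mice examined, where chance flags about 1 in 20. Peg13 was at 50.0 CPM in hTau.P301S replicate 1 against 323 to 357 CPM in the others, with a gap to the nearest of 0.949 of the range of the group. Mirg was at 39.1 CPM in the same mouse against 4.24 to 5.94 CPM, with a gap of 0.850 of the range. This library also had the highest mitochondrial share, 14.4%, and the lowest length index, -2.45, and their part in these values was not tested.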

How the results depend on the processing

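In the tests of the report no RNA passed the limits in edgeR under the alternatives run, apart from Meg3 for NR in hTau.P301S mice without hTau.P301S replicate 1. That fit holds mice that chose Malat1, which Meg3 followed across mice. Where the mice that chose Malat1 enter, counts past the limits of DESeq2 are no test of it. In hTau.P301S against WT they are no test of any of the 9. There 2 of the 9 passed, beside 115 of 16375 genes. With all 4 groups in the fit (added after seeing the data) 4 passed, beside 494 of 17555 genes. For NR in hTau.P301S mice 1 passed, beside 283 of 16386 genes. It was Malat1 itself, so none of the 8 tested passed. Genes called in hTau.P301S against WT, 1 in edgeR, numbered 115 with DESeq2, 494 with DESeq2 over all 4 groups, 36 with edgeR over all 4 groups, 9 with the length trend in the offsets, 5 without a filter and 1 to 14 with a mouse left out (14 without hTau.P301S replicate 1). In hTau.P301S + NR against WT + NR the 9 genes became 58 and 21 with the DESeq2 fits, 15 without a filter and 8 to 31 with a mouse left out (31 without WT + NR replicate 3). For NR in hTau.P301S mice the 1 gene became 283 and 280 with the DESeq2 fits, 2 with edgeR over all 4 groups, 0 with at least 10 counts in every mouse, and 0 to 33 with a mouse left out (33 without hTau.P301S replicate 1), and the calls among the RNAs were 0 to 1. NR in WT had 2 genes with DESeq2 over all 4 groups, and the interaction 18 with DESeq2 and 0 to 1 with a mouse left out. The causes were not tested.

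The replicate numbers only name the mice: same-numbered mice had correlations of -0.54 to 0.29 over genes, and with the replicate block 3, 4, 0, 0 and 0 genes were called in the 5 comparisons, none of them among the 9 RNAs. The block turned Mirg from 0.12 to -0.67 in hTau.P301S against WT, Snhg11 to 0.10 in hTau.P301S + NR against WT + NR and Mirg to 0.20 in the interaction.

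Of log2 fold changes, these also changed sign. With the length trend in the offsets, Rian went to -0.069 and Kcnq1ot1 to -0.088 in hTau.P301S + NR against WT + NR, Neat1 to -0.46, Rian to -0.45, Snhg11 to -0.15 and Kcnq1ot1 to -0.024 for NR in hTau.P301S mice, and Neat1 to -0.66 and Rian to -0.043 in the interaction. With a mouse left out, in hTau.P301S + NR against WT + NR Meg3 ranged from -0.37 to 0.14, Rian from -0.034 to 0.20 and Snhg11 from -0.21 to 0.38. Mirg ranged from -1.57 to 0.12 for NR in hTau.P301S mice and from -0.81 to 0.87 in the interaction, and for NR in WT mice Neat1 ranged from -0.15 to 0.54 and Peg13 from -0.14 to 0.0067. The relation to Malat1 turned to -0.49 for Rian and -0.046 for Peg13 without the length trend, and to -0.012 and -0.042 without hTau.P301S replicate 1.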
